A study of Mus musculus with 12 samples.

Results

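The 10 genes described here make or spend nicotinamide adenine dinucleotide (NAD) in mouse liver: Nampt, Nmnat1, Nmnat3, Naprt1, Nadsyn1 and Nnmt, which act on NAD or its precursors, the sirtuins Sirt1, Sirt3 and Sirt6, and Parp1. They were chosen by name, and for each the transcript row with the highest mean level over all samples stood for the gene. All 10 had a row among 22322 gene symbols, and all 10 were among the 10799 genes that passed the filter on low levels. Sirt6 passed it through a single group.

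Liver RNA was sequenced in 4 groups of 3 samples, from wild-type (WT) mice and from mice that lack Bmal1 in the liver (KO), each at circadian time 0 h (CT0) and 12 h (CT12). Arntl is the gene symbol of Bmal1, whose product forms the activating arm of the circadian clock with CLOCK, and the design asks how its loss changes expression at each time. WT mice were Bmal1 flox/flox, with loxP sites around a single exon of both alleles. KO mice came from breeding Bmal1 flox/flox mice to a line with CRE recombinase under a liver-specific promoter that is not named, which removed sequence coding for the DNA-binding and pairing domain of BMAL1 in the liver. No CRE is stated for WT, so its own effect cannot be told apart from the loss of Bmal1. By the labels all mice were 8 weeks old and C57BL/6, and by the study's methods 8 to 12 weeks on a C57BL/6J background. They were fed freely and entrained to equal light and dark phases before a switch to constant darkness for the last days, and the study's methods describe them as male. The methods give 3 mice per genotype and time, whereas a protocol in the labels names fewer, so p-values measure the spread between these samples whatever their source.

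NAD carries electrons in metabolism and is also consumed as a substrate, so cells must keep remaking it. In the salvage route NAMPT, the rate-limiting enzyme, turns nicotinamide into nicotinamide mononucleotide (NMN), and NMNAT enzymes turn NMN into NAD. Liver can also start from nicotinate, through NAPRT1 and the NAD synthetase NADSYN1, or from tryptophan by the de novo route. Sirtuins remove acyl groups from proteins and PARP1 builds chains of ADP-ribose, and both release nicotinamide from NAD as they act. Nampt is known as a target of CLOCK and BMAL1, and SIRT1 is known to act on clock proteins, so salvage is often drawn as a loop with the clock.

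CLOCK and BMAL1 bind the E-box CACGTG, and DBP and related factors bind the D-box TTATGTAA, so both were searched in the 2001 bases centred on the start of each kept transcript (NCBIM37, equal to mm9, with both strands read for the D-box and the E-box being its own reverse complement). An E-box lay in this window in 6 of the 10 genes, against 31.8% of 10742 tested genes with a window. It was found in Nampt, Nmnat3, Nadsyn1, Sirt1, Sirt6 and Parp1 and not in Nmnat1, Naprt1, Nnmt or Sirt3. None of the 10 held a D-box, which 6.0% of the tested genes did, and among the 37 other NAD genes it lay in Nmrk1 only. A variant of the E-box, CACGTT on either strand, was also searched and lay in 3 of the 10 genes, against 32.7% of tested genes. Shown are E-boxes of the 2 genes of the list that changed, of Sirt1 and Parp1, which hold the same letters and did not pass the test, and the D-box of Nmrk1, a salvage gene outside the list described further on. Capitals mark the motif, and each run is read along the strand of its gene.
Nampt, intron, 740 bases after the start, chr12:33505913-33505972, plus strand: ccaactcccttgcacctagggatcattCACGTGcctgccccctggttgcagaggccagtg
Nmnat3, intron, 393 bases after the start, chr9:98197447-98197506, plus strand: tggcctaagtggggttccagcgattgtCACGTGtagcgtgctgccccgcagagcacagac
Sirt1, upstream, position -115 from the start, chr10:62801866-62801925, minus strand: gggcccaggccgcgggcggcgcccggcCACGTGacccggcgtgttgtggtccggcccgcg
Parp1, upstream, position -113 from the start, chr1:182498946-182499005, plus strand: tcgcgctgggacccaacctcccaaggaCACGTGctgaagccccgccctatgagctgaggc
Nmrk1, intron, 729 bases after the start, chr19:18707142-18707203, plus strand: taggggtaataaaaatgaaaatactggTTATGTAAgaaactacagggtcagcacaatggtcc
A match of letters is a description and does not show binding. The window of Dbp, described below as a direct target of CLOCK and BMAL1, held no E-box. Nmnat3 and Sirt1 each held a further E-box and Sirt6 held 3.

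The samples held between 11460000 and 19020000 reads, as recovered from the steps of the deposited RPKM values (reads per kilobase of transcript, scaled to sequencing depth). WT samples at CT0 were the deepest. Replicates of a group correlated across genes with Pearson's r of 0.979 to 0.9894, where genes are not independent replicates. As a check of the labels, the level of Arntl at CT0 was 15.9 ± 0.370 RPKM in the WT group against 6.37 ± 0.944 RPKM in the KO group (SD, n = 3 each). The order turned at CT12, with 1.05 ± 0.320 RPKM for WT against 3.99 ± 0.391 RPKM for KO (SD, n = 3 each). The deleted exon is a small part of the transcript, so the level of the whole row does not measure the deletion. Hepatocyte markers were abundant in every sample. Summed over 7 genes they lay at 40200 to 51800 RPKM in the 6 WT samples and at 28200 to 36400 RPKM in the 6 KO samples, without overlap. This gap was that of Alb, with means of 36100 and 30900 RPKM in WT and 19000 and 14900 RPKM in KO at CT0 and CT12. The other 6 markers summed to 13300 to 15000 RPKM in WT and 13500 to 15500 RPKM in KO. Among them Ass1, Cps1 and Ttr were higher in the KO means at both times, and Tat and Cyp2e1 were lower at both. Apoa1 was lower in the KO mean at CT0 and higher at CT12. The summed level of 3 neutrophil markers ran from 26.3 to 90.8 RPKM in WT at CT0, 4.57 to 6.98 in WT at CT12, 84.2 to 178 in KO at CT0 and 15.8 to 36.1 in KO at CT12. In WT the summed markers of sinusoidal endothelium lay at 78.8 to 97.4 RPKM at CT0 and 52.7 to 62.8 at CT12, those of stellate cells at 109 to 140 and 79.3 to 94.3, and those of Kupffer cells and macrophages at 140 to 186 and 87.6 to 134. At CT12 stellate markers lay at 99.3 to 130 RPKM in KO, above WT, and erythroid markers at 245 to 306 RPKM in KO against 107 to 189 in WT. The stellate sum at CT12 was mostly Dcn, with means of 72.8 RPKM in WT and 96.2 in KO. Of the other stellate markers only Col1a1 was lower in KO, at 0.89 RPKM in WT and 0.51 in KO. The globins were higher in KO, while the erythroid marker Alas2 was lower, at 33.8 RPKM in WT and 28.1 in KO. No listed marker was at 0 in all samples, and none of the 4 lymphocyte markers reached 1 RPKM in any sample. In whole liver, fewer cells of a type and less RNA per cell cannot be told apart.

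Across the 12 samples the levels of the 10 genes spanned a wide range. Nnmt was highest, with a mean of 99.3 RPKM, followed by Sirt3 at 46.3, Naprt1 at 38.3 and Nampt at 20.1. Nadsyn1 stood at 15.5, Parp1 at 12.3 and Nmnat1 at 6.24 RPKM. Sirt1 at 2.97, Nmnat3 at 2.191 and Sirt6 at 0.851 RPKM were the lowest. These are levels per length, and the kept rows of Sirt3 and Nadsyn1 were short transcripts of 456 and 370 bases whose longest forms had lower levels. The ranges of neighbours in this order overlapped for Sirt3 and Naprt1, for Naprt1 and Nampt, for Nampt and Nadsyn1, for Nadsyn1 and Parp1, for Sirt1 and Nmnat3, and for Nmnat3 and Sirt6. The plot of levels by sample shows Nampt as the gene with 1 group far from the others.

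**Figure D1:**
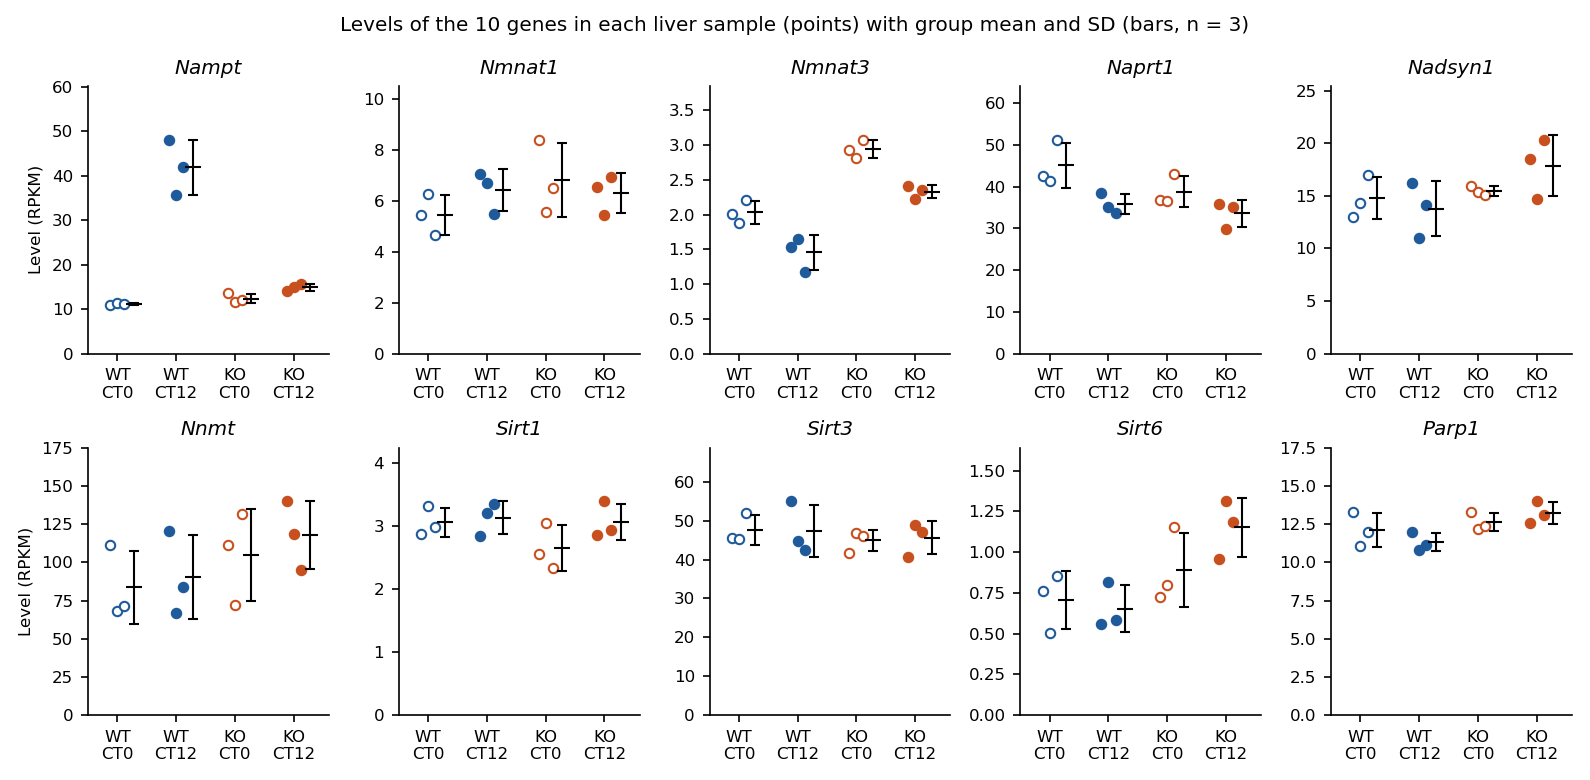
Level in RPKM (y axis, linear and starting at 0) of each of the 10 genes in the 4 groups (x axis), with a point per liver sample and the group mean with its SD beside them (n = 3). Nampt at WT CT12 sits between 35.7 and 48.2 RPKM, far above its other samples, which reach at most 15.6 RPKM.

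Each gene was tested in 6 comparisons with limma on log2(RPKM + 1), with Benjamini-Hochberg adjusted p-values over all 10799 genes and a threshold of 0.05. In KO against WT at CT12, 2 of the 10 genes passed, Nampt lower and Nmnat3 higher, against 10.5% of all genes (3.49% lower, 6.97% higher). In CT12 against CT0 within WT, 1 passed, Nampt higher, against 11.6% of all genes (3.71% higher, 7.88% lower). The same 2 genes as at CT12, in the same directions, passed in KO against WT averaged over both times, where 11.5% of all genes passed (4.03% lower, 7.44% higher). Nampt also passed in the interaction of genotype and time, where 1.49% of all genes did (0.417% with a negative value like that of Nampt). None passed in KO against WT at CT0 or in CT12 against CT0 within KO, where 1.86% and 2.43% of all genes passed. At an unadjusted limma p under 0.05 stood 1 gene (Nmnat3) at CT0 and 2 (Nampt and Nmnat3) in KO with time, near the shares of all genes, 14.2% and 19.9%. At that p the counts were 5 at CT12, 3 in WT with time, 1 in the interaction and 3 in the average, against 24.9%, 26.9%, 12.3% and 25.4% of all genes. The other 8 genes passed in none of the 6. Groups did not overlap for 2 of the 10 genes between genotypes at CT0 and for 4 at CT12, against 20.6% and 28.8% of all genes, and for 3 of 10 with time in WT and 3 of 10 with time in KO, against 34.1% and 23.2%. Sirt6 is in the unadjusted counts at CT12 and in the average, and in the count without overlap at CT12. It passed the filter only through KO at CT12, where it had to be highest, so it adds no support to these counts. Counts this small say little about the 10 genes as a group, and the results are those of single genes.

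The median log2 difference of the 10 genes was 0.11 between genotypes at CT0 and 0.10 at CT12, where the medians of all tested genes were 0.01 and 0.08. With time it was -0.02 in WT and 0.11 in KO, where those of all genes were -0.07 and 0.00. The medians were thus small in each of these comparisons. The plot of differences shows every gene with its interval.

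**Figure D2:**
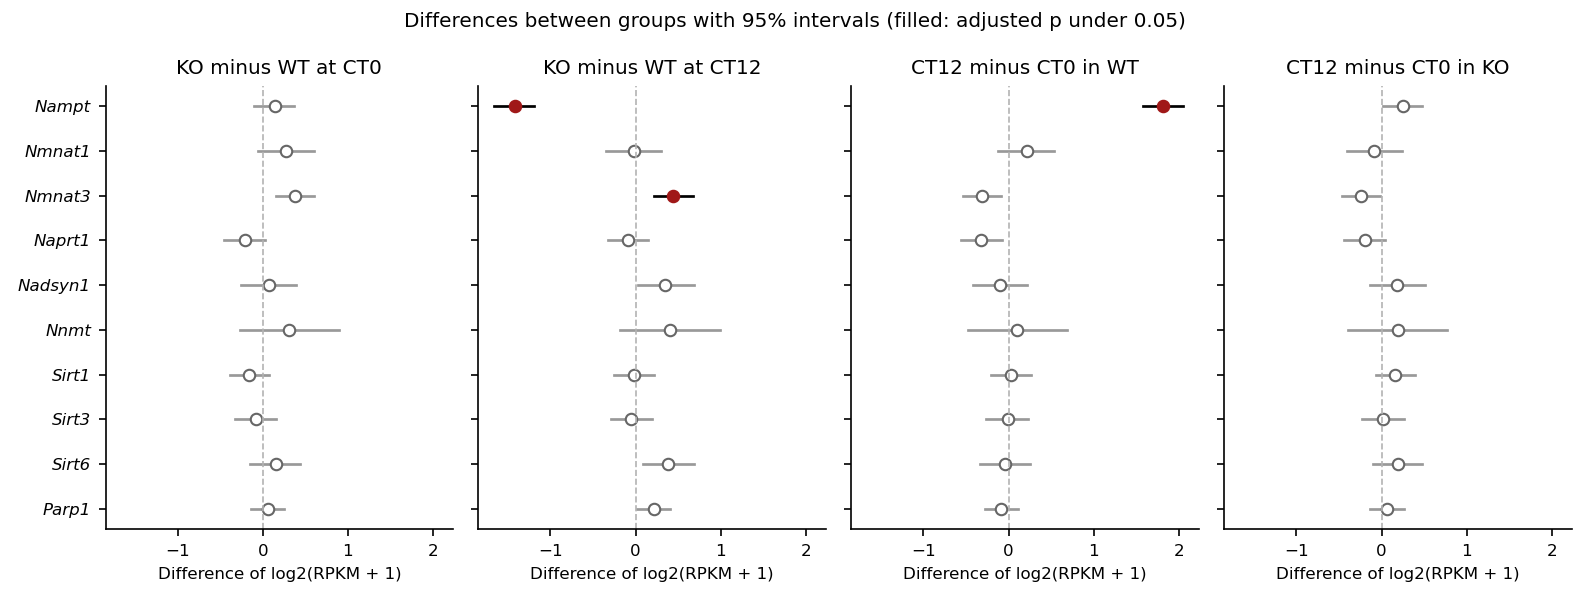
Difference between groups on the log2(RPKM + 1) scale (x axis) for each of the 10 genes (y axis) in 4 comparisons, with lines for 95% intervals from limma and filled points where the adjusted p was under 0.05. Nampt stands at -1.42 in KO against WT at CT12 and at 1.81 with time in WT, and Nmnat3 at 0.44 in KO against WT at CT12, and every other point is open.

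Nampt, the salvage enzyme that sets the pace of the route, rose from CT0 to CT12 in WT, and its smaller difference in KO did not pass the test. The gene lies at chr12:33505200-33538234 on the plus strand, with a single deposited transcript of 4547 bases in 11 exons. In WT it stood at 10.9, 11.3 and 11.2 RPKM at CT0 and at 48.2, 35.7 and 41.9 RPKM at CT12. In KO it stood at 13.6, 11.6 and 12.0 RPKM at CT0 and at 14.0, 15.1 and 15.6 RPKM at CT12. The 3 WT samples at CT12 were all high, and the other 9 lay close together. None of the 4 groups overlapped, in the order WT at CT0, KO at CT0, KO at CT12 and WT at CT12, although the neighbours among the lower 3 did not differ past the threshold.

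The mean of Nampt in WT was 11.1 ± 0.237 RPKM at CT0 and 41.9 ± 6.23 RPKM at CT12 (SD, n = 3 each), a ratio of 3.77. On the log2(RPKM + 1) scale the difference was 1.81 with an SE of 0.11 and an adjusted p of 1.4e-06. In KO the means were 12.4 ± 1.05 RPKM at CT0 and 14.9 ± 0.821 RPKM at CT12 (SD, n = 3 each), a ratio of 1.20. That difference, 0.25 with a 95% interval of 0.02 to 0.48, did not pass after adjustment (adjusted p = 0.22). The 2 time differences were themselves different, with an interaction of -1.56, an SE of 0.15 and an adjusted p of 0.00045. In RPKM the gain was 30.8 in WT and 2.53 in KO.

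At CT12 Nampt in KO was 0.355 times its WT level, a log2 difference of -1.42 with an SE of 0.11 and an adjusted p of 6.8e-06. At CT0 the genotypes differed by 0.14 with a 95% interval of -0.10 to 0.37 (adjusted p = 0.63), so the averaged difference of -0.64 (adjusted p = 0.00019) rested on CT12. The row rested on 623 to 3534 reads per sample. The calls with time in WT, at CT12, in the interaction and in the average passed under every alternative run, including the removal of any sample. Beside this, the summed neutrophil markers were lower at CT12 than at CT0 in both genotypes, and in WT so were those of endothelium, stellate cells and Kupffer cells. At CT12 the neutrophil, stellate and erythroid sums were higher in KO than in WT without overlap, though Col1a1 and Alas2 among them had lower means. Alb was lower in the KO means at both times while the other hepatocyte markers together were not. The part of these markers in the Nampt result was not tested.

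On the same scale Dbp, a clock output gene and a direct target of CLOCK and BMAL1, had a time difference of 3.59 for WT against 1.19 for KO. That of Per2, a clock repressor, was 2.29 for WT against 0.41 for KO (adjusted p = 0.23 for KO), and that of Nr1d1, another repressor, passed in neither (-0.35 for WT, 0.71 for KO). The WT difference of Nampt was smaller than those of Dbp and Per2.

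The NMNAT enzymes join NMN to an adenylate group and so complete NAD, NMNAT1 in the nucleus and NMNAT3 in mitochondria. Nmnat3 was higher in KO at CT12 and in the average over both times. Its kept transcript of 1898 bases lies at chr9:98197081-98311810 on the plus strand. It stood at 2.01, 1.88 and 2.21 RPKM in WT at CT0 and at 2.93, 2.81 and 3.08 RPKM in KO at CT0. At CT12 it stood at 1.54, 1.65 and 1.18 RPKM in WT and at 2.41, 2.23 and 2.35 RPKM in KO. KO samples were above all WT samples of the same time, and both genotypes were lower at CT12 than at CT0, without overlap.

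The log2 difference of Nmnat3 between genotypes was 0.44 at CT12 (SE 0.10, adjusted p = 0.016) and 0.38 at CT0 (SE 0.10, adjusted p = 0.094). Averaged over times it was 0.41 with an SE of 0.07 and an adjusted p of 0.0030. The time differences, -0.31 in WT (adjusted p = 0.073) and -0.24 in KO (adjusted p = 0.22), did not pass, and the interaction was 0.07 with a 95% interval of -0.25 to 0.38. The row rested on 30 to 83 reads per sample. Removal of WT CT12 replicate 3, the lowest sample, ended the CT12 call, with a difference of 0.36 and an adjusted p of 0.072, and so did a fit on only the 6 samples compared. The averaged call held under every alternative run. All 4 transcript rows of the gene were higher in KO at both times, and they may share reads.

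Nmnat1, at chr4:148842668-148859307 on the minus strand, showed no difference past the threshold. It stood between 4.64 and 6.24 RPKM in WT at CT0, 5.48 and 7.06 in WT at CT12, 5.56 and 8.40 in KO at CT0, and 5.43 and 6.92 in KO at CT12. All groups overlapped. The averaged difference between genotypes was 0.12 with a 95% interval of -0.11 to 0.36 (adjusted p = 0.52).

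Naprt1 begins the route from nicotinate and Nadsyn1 ends it by adding the amide group of NAD. Naprt1, at chr15:75721394-75724911 on the minus strand, stood at 42.6, 41.4 and 51.3 RPKM in WT at CT0 and at 38.4, 35.1 and 33.8 RPKM in WT at CT12. KO levels were 36.8, 36.5 and 43.1 RPKM at CT0 and 35.8, 29.9 and 35.2 RPKM at CT12. Every CT12 sample lay below every CT0 sample of its genotype. Even so, the time difference in WT of -0.32 (95% interval -0.56 to -0.08) did not pass (adjusted p = 0.079), nor did the averaged genotype difference of -0.15 (95% interval -0.32 to 0.02, adjusted p = 0.26).

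Nadsyn1, at chr7:150999329-151008710 on the minus strand, stood between 13.0 and 17.0 RPKM in WT at CT0, 11.0 and 16.3 in WT at CT12, 15.1 and 16.0 in KO at CT0, and 14.7 and 20.4 in KO at CT12. The genotypes overlapped at both times. The difference at CT12 was 0.35 with a 95% interval of 0.03 to 0.68 (adjusted p = 0.16), and the average was 0.21 (adjusted p = 0.23). The row of 370 bases rested on 60 to 106 reads per sample. The other row of the gene, of 2641 bases, differed by 0.30 at CT12.

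Nnmt methylates nicotinamide and so takes it away from salvage. At chr9:48399982-48413258 on the minus strand, it was the most abundant of the 10 genes and had the largest SE, 0.27 for a difference between 2 groups. WT samples stood at 111, 68.3 and 71.8 RPKM at CT0 and at 120.5, 66.7 and 84.1 RPKM at CT12. KO samples stood at 111, 72.1 and 132 RPKM at CT0 and at 140.3, 118 and 95.2 RPKM at CT12. The means were higher in KO, at 105 against 83.8 RPKM at CT0 and 118 against 90.4 RPKM at CT12, but samples of all groups overlapped. The difference at CT12, 0.40, had a 95% interval of -0.18 to 0.99 (adjusted p = 0.39), and the average, 0.36, had one of -0.05 to 0.77 (adjusted p = 0.27). With this spread neither difference passed, and which sizes of change 3 samples per group could detect was not tested.

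Of the sirtuins, SIRT1 deacetylates nuclear proteins that include clock factors, SIRT3 acts on mitochondrial enzymes, and SIRT6 acts on chromatin. None passed in any comparison with 1 row per gene and all 12 samples. Sirt1, at chr10:62781806-62801783 on the minus strand, stood between 2.87 and 3.32 RPKM in WT at CT0, 2.83 and 3.35 in WT at CT12, 2.33 and 3.04 in KO at CT0, and 2.86 and 3.39 in KO at CT12. Its averaged difference between genotypes was -0.09 with a 95% interval of -0.26 to 0.07 (adjusted p = 0.51). Sirt3, at chr7:148062333-148067768 on the minus strand, stood between 40.8 and 55.1 RPKM in all 12 samples. Its averaged difference was -0.07 with a 95% interval of -0.24 to 0.11 (adjusted p = 0.67). All groups of both genes overlapped.

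Sirt6, at chr10:81084530-81090065 on the minus strand, was the lowest of the 10 genes and rested on 13 to 29 reads per sample. It stood at 0.762, 0.505 and 0.852 RPKM in WT at CT0 and at 0.558, 0.817 and 0.581 RPKM in WT at CT12. KO samples stood at 0.724, 0.801 and 1.15 RPKM at CT0 and at 0.957, 1.31 and 1.19 RPKM at CT12. KO samples at CT12 lay above all WT samples of that time, but only this group, with a mean of 1.15 RPKM, carried the gene over the filter, so it had to be the highest. The difference at CT12 was 0.38 with a 95% interval of 0.09 to 0.68 (adjusted p = 0.098) and the average was 0.26 (adjusted p = 0.099). With the transcript rows of each gene summed, the averaged difference did pass, at 0.37 with an adjusted p of 0.048.

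Parp1, which spends NAD at broken DNA, lies at chr1:182499086-182531384 on the plus strand and rested on 545 to 965 reads per sample. It stood at 13.3, 11.1 and 12.0 RPKM in WT at CT0 and at 12.0, 10.8 and 11.1 RPKM in WT at CT12. In KO it stood at 13.3, 12.2 and 12.4 RPKM at CT0 and at 12.6, 14.0 and 13.1 RPKM at CT12. At CT12 every KO sample lay above every WT sample, and at CT0 they overlapped. The difference at CT12 was 0.21 with a 95% interval of 0.02 to 0.40 and did not pass (adjusted p = 0.17), nor did the average of 0.13 (adjusted p = 0.21). Among the 10 genes Parp1 had the smallest SE, 0.09 for a difference between 2 groups.

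The other genes of NAD metabolism were taken from a list of 43, of which 42 had a row and 37 were tested. The 5 below the filter reached at most 0.742 RPKM. In all, 11 of the 37 passed in at least 1 comparison and 26 in none, where 21.4% of all genes passed in at least 1. They were 4 of 8 genes of the de novo route, 3 of 7 for the riboside, phosphates and transport, 1 of 2 for clearance, 0 of 4 further sirtuins and 3 of 16 ADP-ribosylating or NAD-cleaving enzymes. In the fit with 1 row per gene and all 12 samples, no sirtuin tested here passed in any comparison, Sirt1, Sirt3 and Sirt6 included. At an unadjusted limma p under 0.05 in at least 1 comparison stood 3 of the further 4 (Sirt4, Sirt5 and Sirt7), as did 53.5% of all genes, and so did Sirt6, which passed the filter only through the group where it was high.

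By comparison, 8 of the 37 passed in KO against WT at CT12 (5 higher, 3 lower), against 10.5% of all genes (6.97% higher, 3.49% lower). In WT with time 7 passed (1 higher, 6 lower), against 11.6% of all genes (3.71% higher, 7.88% lower). In the average over times 5 passed, in KO with time 3, in the interaction 2, and in KO against WT at CT0 only Kynu. The shares of all genes in that order were 11.5%, 2.43%, 1.49% and 1.86%. The counts among the 37 moved with the samples and settings used. The shares of all genes in the fits below are not given here, so whether they moved alike was not tested. At CT12 the count was 4 without WT CT12 replicate 1, WT CT12 replicate 2 or KO CT12 replicate 2, and 5 without WT CT12 replicate 3 or KO CT12 replicate 3. In WT with time it was 4 without any of the WT CT0 replicates or WT CT12 replicate 1, and 11 without KO CT0 replicate 1. In KO with time it was 0 without KO CT0 replicate 3 or KO CT12 replicate 1, and 1 without KO CT0 replicate 1 or KO CT12 replicate 2. With only the 6 samples compared it was 0 as well. The count at CT0 was 0 without the filter, with only the 6 samples compared, and without any of the WT CT0 replicates, and the averaged count was 9 without KO CT0 replicate 1.

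Nmrk1, the kinase that makes NMN from nicotinamide riboside, had a pattern close to that of Nampt. It stood at 6.67, 7.21 and 7.20 RPKM in WT at CT0 and at 25.4, 24.2 and 23.4 RPKM in WT at CT12. KO levels were 11.6, 10.4 and 7.01 RPKM at CT0 and 8.43, 9.63 and 8.79 RPKM at CT12. As with Nampt, the 3 WT samples at CT12 were apart from the other 9. The time difference was 1.66 in WT (SE 0.14, adjusted p = 1.8e-05) and -0.08 in KO (adjusted p = 0.81), with an interaction of -1.74, an SE of 0.20 and an adjusted p of 0.0012. At CT12 the KO level was 0.368 times that of WT, a log2 difference of -1.35 with an adjusted p of 7.8e-05. Nampt and Nmrk1, whose enzymes both yield NMN, thus rose with time in WT and were lower in KO at CT12, each under every alternative run.

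Pnp, a phosphorylase of purine nucleosides that also splits nicotinamide riboside, went the other way. It stood at 61.4, 64.9 and 63.1 RPKM in WT at CT0 and at 28.4, 26.6 and 29.6 RPKM in WT at CT12. KO samples stood at 68.3, 68.8 and 67.9 RPKM at CT0 and at 55.1, 47.7 and 54.5 RPKM at CT12. Again the 3 WT samples at CT12 were apart, here lower than all others. The time difference was -1.14 in WT (adjusted p = 4.4e-06) and -0.38 in KO (adjusted p = 0.031), with an interaction of 0.76, an SE of 0.11 and an adjusted p of 0.0057. The call in KO was lost under quantile normalization (adjusted p = 0.055), in a fit on only the 6 samples compared (0.13), and without WT CT0 replicate 2, any KO CT0 replicate, or KO CT12 replicate 1 or 2, with adjusted p-values of up to 0.10 in these. The neighbouring gene Pnp2 is a close copy, and reads shared between them could not be assigned from these files, so the level is uncertain. The kept row had no length in the annotation. The other row of the gene, of 2942 bases, had lower means, at 29.1 and 13.1 RPKM in WT and 31.6 and 24.3 RPKM in KO at CT0 and CT12. Its time differences were -1.09 in WT and -0.37 in KO.

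**Figure D3:**
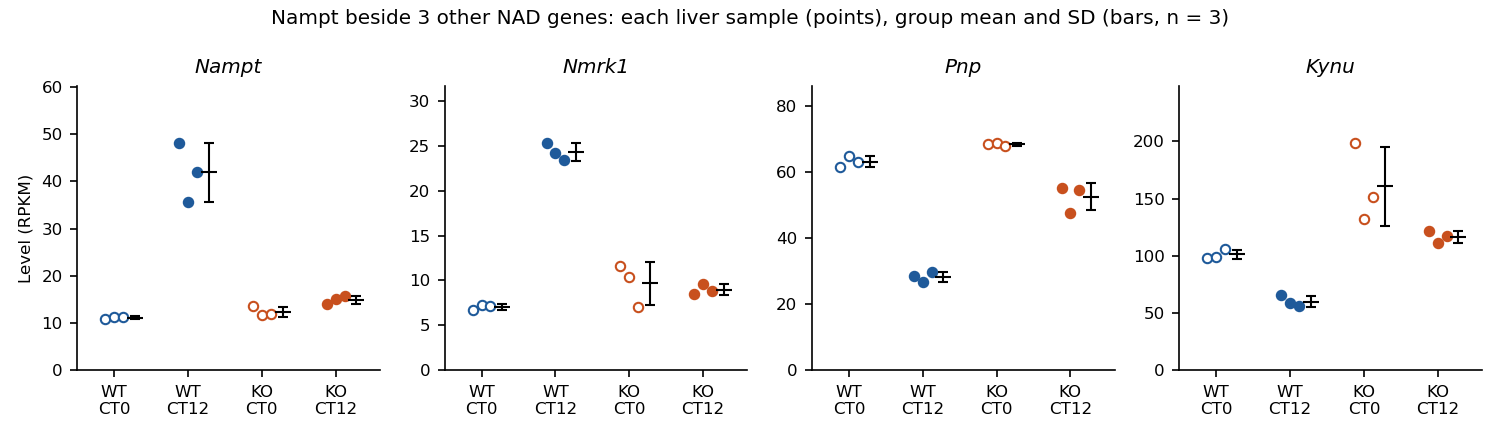
Level in RPKM (y axis, linear and starting at 0) of Nampt, Nmrk1, Pnp and Kynu in the 4 groups (x axis), with a point per liver sample and the group mean with its SD beside them (n = 3). The WT samples at CT12 are the highest for Nampt and Nmrk1, at 41.9 and 24.3 RPKM on average, and the lowest for Pnp and Kynu, at 28.2 and 59.9 RPKM.

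In the de novo route, Kynu, the kynureninase that cuts kynurenine products, was higher in KO. It stood at 98.4, 99.0 and 106 RPKM in WT at CT0 and at 65.7, 58.2 and 55.9 RPKM in WT at CT12. KO levels were 199, 132 and 151 RPKM at CT0 and 122, 111 and 117 RPKM at CT12. KO samples lay above all WT samples at both times. The genotype difference was 0.95 at CT12 (adjusted p = 0.00052) and 0.64 at CT0 (adjusted p = 0.027), and the time difference in WT was -0.75 (adjusted p = 0.0032). The call at CT0 was lost without the filter on low levels, with only the 6 samples compared, and when any of the WT CT0 replicates or KO CT0 replicate 3 was left out, with adjusted p-values of up to 0.11 over these.

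Afmid, which makes kynurenine, and Ido2, which opens the ring of tryptophan, were lower in KO at CT12, by a difference of -0.61 (adjusted p = 0.018) and of -0.50 (adjusted p = 0.023). Ido2 also fell with time in KO, with a difference of -0.69 (adjusted p = 0.018), as did Acmsd, which diverts the route away from NAD, with a difference of -1.55 (adjusted p = 0.023). Each of these 4 calls was lost without at least 1 of the samples compared. For Ido2 these were WT CT12 replicate 2 or 3 and KO CT12 replicate 2 or 3 between genotypes, and KO CT0 replicate 3 and KO CT12 replicate 1 or 2 with time. For Afmid they were WT CT12 replicate 1 or 3 and KO CT12 replicate 2, and for Acmsd KO CT0 replicate 1 or 3 and KO CT12 replicate 1 or 3. With only the 6 samples compared, the time calls of Ido2 (adjusted p = 0.071) and Acmsd (0.063) were lost as well. The highest adjusted p-values reached without a sample were 0.098 and 0.064 for Ido2, 0.071 for Afmid and 0.082 for Acmsd. Averaged over times, Afmid was lower in KO by a difference of -0.48 (adjusted p = 0.0091) under every alternative run.

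Nt5e, the surface enzyme CD73 that turns NMN into the riboside, stood at 4.55 to 6.36 RPKM in WT at CT0 and at 0.987 to 1.81 RPKM in WT at CT12. In KO it stood at 3.75 to 8.30 RPKM at CT0 and at 2.85 to 5.36 RPKM at CT12. It fell with time in WT by a difference of -1.47 (adjusted p = 0.0034). At CT12 it was higher in KO by 1.08 (adjusted p = 0.018), a call lost without WT CT12 replicate 1 or 2 or KO CT12 replicate 3, with adjusted p-values of up to 0.070. Aox3, an aldehyde oxidase, was higher in KO at CT12 by 0.86 (adjusted p = 0.032), a call lost without the filter, under quantile and median-of-ratios scaling and without any WT CT12 replicate or KO CT12 replicate 2 or 3, with adjusted p-values of up to 0.12.

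Among the enzymes that spend NAD beside Parp1, Parp2, its relative in DNA repair, was higher in KO averaged over times by 0.39 (SE 0.07, adjusted p = 0.0029), under every alternative run. It stood at 5.62 to 6.87 RPKM in WT and 8.21 to 8.44 RPKM in KO at CT0, and at 4.06 to 4.96 RPKM in WT and 5.98 to 6.59 RPKM in KO at CT12. Its differences at CT12 (0.39, adjusted p = 0.023) and with time in WT (-0.36, adjusted p = 0.033) were lost under both rescalings. Both were also lost with only the 6 samples compared, and the second with the replicate block. The first was also lost without WT CT12 replicate 1 or 2 or KO CT12 replicate 1 or 2, and the second without any WT CT0 replicate or WT CT12 replicate 1 or 2, with adjusted p-values of up to 0.082 and 0.11 in these. Parp3 and Parp11 fell with time in WT by differences of -0.69 (adjusted p = 0.027) and -0.51 (adjusted p = 0.043). Both calls were lost without the filter, under median-of-ratios scaling and without any WT CT0 replicate or WT CT12 replicate 1 or 3. That of Parp11 was also lost under quantile normalization, with the replicate block, with the longest transcript row and with only the 6 samples compared. It was lost without KO CT0 replicate 2 or 3 or KO CT12 replicate 1 as well. Adjusted p-values reached up to 0.098 for Parp3 and 0.16 for Parp11. The plot of time differences sets the 10 genes among these 37.

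**Figure D4:**
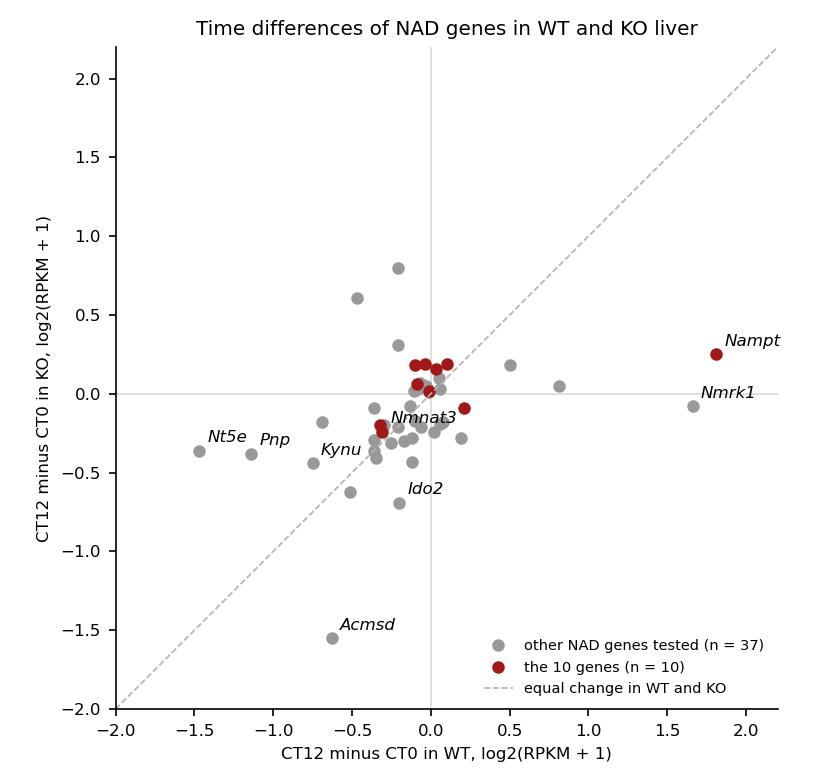
Difference between CT12 and CT0 on the log2(RPKM + 1) scale in WT (x axis) and in KO (y axis) for the 10 genes (dark red) and the 37 other NAD genes tested (grey), with a dashed line where both would be equal. Nampt, at 1.81 in WT and 0.25 in KO, and Nmrk1, at 1.66 and -0.08, lie far to the right of the line and close to a KO difference of 0, and Pnp and Nt5e lie to the left.

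The genes whose levels followed Nampt most closely over the 12 samples were Polr2b (Pearson's r = 0.979), Gm129 (0.963), Rhbdd2 (0.961), Nmrk1 (0.959) and Nrg4 (0.958). The measure was taken over all 10799 genes on the log2(RPKM + 1) scale and is a description, since the 12 samples share their groups and the 3 WT samples at CT12 set most of each value. Gm129, a clock repressor also known as Ciart, went from 0.1004 ± 0.0874 RPKM to 17.0 ± 3.71 RPKM in WT (SD, n = 3 each). Polr2b, a core subunit of RNA polymerase II, went from 16.2 ± 0.714 RPKM to 24.5 ± 2.06 RPKM (SD, n = 3 each), a smaller ratio than that of Nampt. Nrg4, a growth factor, went from 0.887 to 6.85 RPKM and Rhbdd2 from 1.10 to 2.91 RPKM in the same means. In KO at CT12 the means of Gm129 and Polr2b were 1.80 and 16.9 RPKM. Nmrk1 was the only listed NAD gene among the 5.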

How the data were processed

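The study sequenced liver RNA of 12 samples with an Illumina TruSeq RNA kit (version 2), which does not mark strand. The authors deposited RPKM values for 46585 transcripts per sample, and the submitters' processing notes name TopHat2, bedtools 2.19.1 and the build mm9. Their roles, the annotation and the treatment of reads that match several transcripts are not given in the sources used here. Depth was recovered from the steps of low RPKM values with GENCODE vM1 lengths (95.5% of rows had one), where 94.6% to 95.8% of low values lay within 0.02 of a whole read. It was checked on simulated data, as was the fit. Being estimated from RPKM, reads were not tested as counts.

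For each of 22322 symbols the row with the highest mean was kept. The 10799 genes that reached a group mean of 1 RPKM were fitted as log2(RPKM + 1) with limma 3.58.1 in R 4.3.3 (4 group means, all 12 samples, moderated with a trend, two-sided). Fold changes on this scale understate changes of low genes. P-values were Benjamini-Hochberg adjusted over all genes tested (threshold 0.05), and intervals cover 95%. The named genes were the 10 members, the listed NAD genes past the threshold, the 5 genes most correlated with Nampt and 4 clock genes. Members and lists were chosen with earlier results of these data known. Groups came from sample titles, which give circadian time where descriptions say zeitgeber time. No pairing of samples by replicate number was seen. Alternatives were a pseudocount of 0.1, no filter, 2 rescalings, summed rows, a replicate block, an unmoderated model, only the samples compared and each sample left out. The longest row was added after seeing the data. Figures used Python 3.11.15 and matplotlib 3.10.9.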

Additional observations from a re-analysis of the deposited data

Results flagged for a closer look

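Among the 10 genes and the 37 other NAD genes tested, 3 had time differences that differed between WT and KO past the threshold, where 1.49% of all genes did. The others did not pass, which does not show that their time differences were equal. The test was that of the interaction (limma, Benjamini-Hochberg adjusted over 10799 genes). Nampt had an interaction of -1.56 (SE 0.15, adjusted p = 0.00045) and rose in WT. Nmrk1 had an interaction of -1.74 (SE 0.20, adjusted p = 0.0012) and rose in WT. Pnp had an interaction of 0.76 (SE 0.11, adjusted p = 0.0057) and fell less in KO than in WT. In each, the 3 WT samples at CT12 were apart from the other 9. Groups of 3 samples were too small to look for single outlying samples.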

How the results depend on the processing

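The 6 counts of called members were recomputed under each alternative, and 115 of those values stayed within 1.5 times the reported one while 9 did not. The reported counts were 0, 1 or 2, so this rule mostly asked whether a count stayed equal. In the average, summed transcript rows gave 3 against 2, which the rule took as within. With an unmoderated model and unadjusted p, the counts were 1 in KO against WT at CT0, 4 at CT12, 3 with time in WT, 2 with time in KO and 4 in the average. The shares of all genes in the same order were 13.8%, 24.2%, 25.7%, 19.0% and 24.3%. The 4 at CT12 and the 4 in the average include Sirt6, which passed the filter only through KO at CT12. Leaving out each sample gave 1 or 2 at CT12, and the fit on only the 6 samples compared gave 1. The shares of all genes in those fits are not given here. With time in WT, summed transcript rows gave 2 and the longest transcript row, an alternative added after seeing the data, gave 2 among 9 members tested. The second gene was Nmnat3 in both. The interaction of Nmnat3, near 0, turned to -0.05 under quantile normalization and ran from -0.02 to 0.12 when samples were left out. The time difference of Nmrk1 in KO ran from -0.27 to 0.06 when samples were left out. The labels do not say what a replicate number marks, and no pairing by it was seen. Deviations of same-numbered samples correlated by 0.0082 on average over 18 pairs (-0.0665 to 0.1386), against -0.0041 for others. With the replicate block, members called were 0, 2, 1, 0, 1 and 2 in the order CT0, CT12, time in WT, time in KO, interaction and average, each as without it. Rescaling moved the median of all genes by less than 0.1 on the log2 scale. At this depth 1 read on 1 kilobase was worth 0.0526 to 0.0872 RPKM, which limits Sirt6 and Nmnat3 most.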

Other observations

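Nnt, the mitochondrial transhydrogenase that moves electrons between NADH and NADPH, varied more between samples of a group than the 10 genes did. It stood at 24.1, 38.3 and 13.2 RPKM in WT at CT0, at 13.8, 11.9 and 26.6 RPKM in WT at CT12, at 9.78, 23.0 and 10.1 RPKM in KO at CT0 and at 10.2, 22.1 and 38.9 RPKM in KO at CT12. It passed in none of the 6 comparisons, and the SE of its difference between 2 groups was 0.49 on the log2(RPKM + 1) scale, against at most 0.27 among the 10 genes.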
